A study of Mus musculus with 3 samples.

Results

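The genes described here are the receptor tyrosine kinase gene Ret, its co-receptor genes Gfra1, Gfra2, Gfra3 and Gfra4, and the genes of the GDNF family ligands Gdnf, Nrtn, Artn and Pspn. They were taken by symbol through the platform annotation, and all 9 were found among the 19938 genes measured, each with 1 probe set. The samples were 3 preparations of duct cells from CD-1 mice. The embryos were at 10.5 dpc (Theiler stage 18), of sex given as unknown, and carried the transgene Tg(Hoxb7-EGFP)33Cos. In these embryos the Hoxb7 promoter drives green fluorescent protein in the nephric duct and its branches, and sorting selected on that fluorescence. Per the labels, each preparation came from 1 ureteric duct, which was dissected, treated with trypsin and passed through a cell sorter, and the labels name the source ureteric trunk. All 3 form a single group with 1 array each, numbered 1 to 3 in the titles, so no contrast between conditions was possible. Nothing in the labels says that they came from separate litters. For genes whose values differ between arrays, p-values measure at most the spread between these preparations, which may be technical. For genes with one value on all arrays, described below, they do not measure that spread.

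GDNF family ligands are small secreted dimers of the transforming growth factor beta superfamily. Each binds a GFR-alpha protein, which is held in the membrane by a lipid anchor and has no kinase of its own, and the pair brings together Ret molecules that phosphorylate each other and signal through the Ras-ERK, PI3 kinase and phospholipase C pathways. In the classical pairing GDNF binds GFR-alpha1, neurturin GFR-alpha2, artemin GFR-alpha3 and persephin GFR-alpha4. In the early kidney, mesenchyme beside the nephric duct makes GDNF, while the duct carries Ret and GFR-alpha1, and this exchange draws out the ureteric bud. The same receptors serve the enteric nervous system and other peripheral neurons.

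Promoter sequence is shown for the ligand and co-receptor of the classical kidney pair, Gdnf and Gfra1, since both genes passed the test against background described further on. RefSeq promoters (GRCm38.p6) were matched by symbol for 6 of the 9 genes, with 8 entries, and those of Ret, Gfra2 and Gfra3 were not used here. The sequences below are the 250 bases before the annotated start, 5′ to 3′ on the gene's strand, chr15:7809798-7810047 on the plus strand for the upstream of the 2 Gdnf entries and chr19:58455399-58455648 on the minus strand for Gfra1. Capitals mark matches to 3 motifs searched on both strands, GATAA for GATA factors, TATAAA for the TATA box and GGGCGG for the GC box, and none of these overlapped another match here.
Gdnf: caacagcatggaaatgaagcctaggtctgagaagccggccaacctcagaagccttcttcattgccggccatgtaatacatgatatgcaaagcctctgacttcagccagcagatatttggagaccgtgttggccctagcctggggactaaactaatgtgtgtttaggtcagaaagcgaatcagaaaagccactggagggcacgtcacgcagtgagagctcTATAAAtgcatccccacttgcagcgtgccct
Gfra1: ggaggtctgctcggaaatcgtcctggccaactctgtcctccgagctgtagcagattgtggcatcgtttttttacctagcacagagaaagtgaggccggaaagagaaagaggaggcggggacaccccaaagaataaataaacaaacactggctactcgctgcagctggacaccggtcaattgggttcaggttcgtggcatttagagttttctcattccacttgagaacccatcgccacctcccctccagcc
The Gdnf sequence held 1 TATAAA, 31 to 26 bases before the start, and neither other motif. TATAAA occurred in 12.4% of 32851 promoter windows of this length. The Gfra1 sequence held 0 matches to the 3 motifs. GATAA was found in 22.6% and GGGCGG in 32.7% of all windows, and the other Gdnf entry held 1 GATAA. CpG dinucleotides numbered 7 in the Gdnf window and 10 in that of Gfra1, against a median of 6 over all windows. These matches describe the letters of the windows and were not set against the signals.

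Signals were the authors' deposited values, taken as log2 from their range, and each gene was compared with a background read on the same array. Receptor genes of the olfactory and vomeronasal neurons of the nose served as that background, with 1212 probe sets, called sensory receptor probe sets here. Their 95th percentile, the cutoff, was 5.69, 5.73 and 5.70 on arrays 1, 2 and 3, and their 99th percentile 6.41, 6.33 and 6.40. A gene passed when limma's one-sided test of its distance above the cutoffs gave a Benjamini-Hochberg adjusted p under 0.05 over all 21789 single-gene probe sets. Of the 9 genes, 6 passed (Ret, Gfra1, Gfra3, Gdnf, Nrtn and Pspn), beside 56.2% of all genes, and 3 did not (Gfra2, Gfra4 and Artn). Without a test, the same 6 lay above the cutoff on all 3 arrays, as did 57.8% of all genes. At the 99th percentile 2 passed, Ret and Gfra1, beside 36.1% of all genes, and these 2 lay above it on all 3 arrays, as did 38.1%. The median signal of the 9 was 5.90, and that of all genes was 6.04. At the 95th percentile the share of the family that passed, 66.7%, was thus near that of all genes. At the 99th percentile 2 of 9 was a lower share than the 36.1% of all genes. Probe sets differ in affinity and length, so a distance above the cutoff does not rank transcript amounts between genes.

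**Figure D1:**
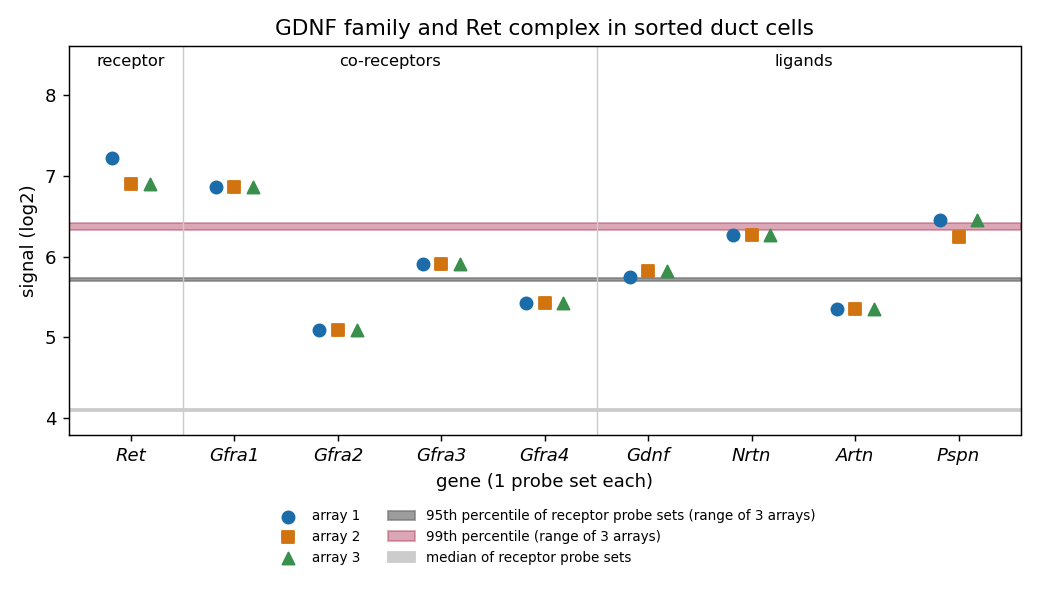
Signal (log2) of the 9 genes on each of the 3 arrays, with 1 point per array, against the range over arrays of the 95th percentile (grey band), the 99th percentile (pink band) and the median (light line) of the sensory receptor probe sets. Ret and Gfra1 lie above both bands on every array, Nrtn and Gfra3 lie between them, and Gfra2, Gfra4 and Artn lie below both.

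The deposited values carry ties, which bear on every spread given here. Of the 35557 probe sets, 39.7% read identically on each array, and so did 50.8% of genes. Among the 9 genes this was true of 6, Gfra1, Gfra2, Gfra3, Gfra4, Nrtn and Artn, for which no spread between arrays can be given. The other 3, Ret, Gdnf and Pspn, held one value on 2 arrays and another on the third. Values were also shared between probe sets, with 19690 to 20096 distinct values per array, so that 49.9% to 51.3% of probe sets held a value that another probe set held too. For a tied gene, the fitted spread comes from the 3 cutoffs and from moderation, and its p is too small. Ties also enter the common spread toward which moderation draws every gene. That spread was 0.035 log2 units, against 0.125 where tied probe sets were given the spread of untied ones. The p of Ret, Gdnf and Pspn therefore depends on the ties too. For Gdnf, limma's Benjamini-Hochberg adjusted p was 0.0161 as reported and 0.147 in that other setting.

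Ret, the signalling receptor of the family, read 7.21, 6.89 and 6.89 on arrays 1, 2 and 3. Array 1 was the highest, by 0.32, and every array lay above the 99th percentile of the sensory receptors. The distance above the cutoff was 1.52, 1.16 and 1.19 log2 units on arrays 1, 2 and 3, with a mean of 1.29 ± 0.20 (SD, n = 3; limma, Benjamini-Hochberg adjusted p = 0.000749). Of the 1212 sensory receptor probe sets, 3 were brighter than Ret on array 1 and 4 on arrays 2 and 3. These were Olfr314, Olfr1174 and Olfr239 on every array and Olfr767 on arrays 2 and 3, named after their values were seen. Of all other genes, 70.4% to 75.2% read below Ret, depending on the array. The value on array 1 was held by no other probe set. The value on arrays 2 and 3 was held exactly by 34 and 33 other probe sets, 0 of them sensory receptors, and 18 of these held it on all 3 arrays. Without array 1, Ret lay 1.18 log2 units above the cutoff and still passed. With the cutoff raised by 1 log2 unit, Ret lay above it by 0.29 and did not pass, while 28.4% of all genes did.

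Gfra1, which encodes the co-receptor preferred by GDNF, read 6.86 on all 3 arrays. It lay 1.17, 1.13 and 1.16 log2 units above the cutoffs of arrays 1, 2 and 3, with a mean of 1.15 (limma, Benjamini-Hochberg adjusted p = 1.11e-05). On each array 4 sensory receptor probe sets were brighter, and no other probe set held the same value. Of the 9 genes, Gfra1 alone passed in each of the 15 alternative settings, including the cutoff raised by 1 log2 unit, which it exceeded by 0.15. Ret exceeded that raised cutoff by more, 0.29, and did not pass. In the reported setting the standard error was 0.015 for Gfra1, which is tied, and 0.093 for Ret. Gfra1 thus passed alone there at a smaller distance than that of Ret. Whether it would pass the raised cutoff with the spread of untied probe sets was not tested.

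The other co-receptors gave lower signals. Gfra3, the artemin co-receptor of sensory and sympathetic neurons, read 5.90 on all arrays, 0.20 above the mean cutoff (limma, Benjamini-Hochberg adjusted p = 0.000873). Its distance from the mean 99th percentile was -0.47, and it did not pass there. Its exact value was shared by 98, 103 and 96 other probe sets on arrays 1, 2 and 3, among them 2, 3 and 1 sensory receptor probe sets. Robo2, listed here among regulators of Gdnf, held this same value on all 3 arrays. The Gfra3 signal could therefore not be told apart from values that probe sets of the background group also take. Gfra4, the persephin co-receptor, read 5.43 and Gfra2, the neurturin co-receptor, 5.09 on every array. Gfra4 lay above 90.2% to 90.5% of the sensory receptors and Gfra2 above 83.9% to 84.5%. Both were below the cutoff on all 3 arrays, and Gfra4 passed where the cutoff was the 90th percentile, as well as in the pair of lower cutoffs at which all 9 genes passed.

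**Figure D2:**
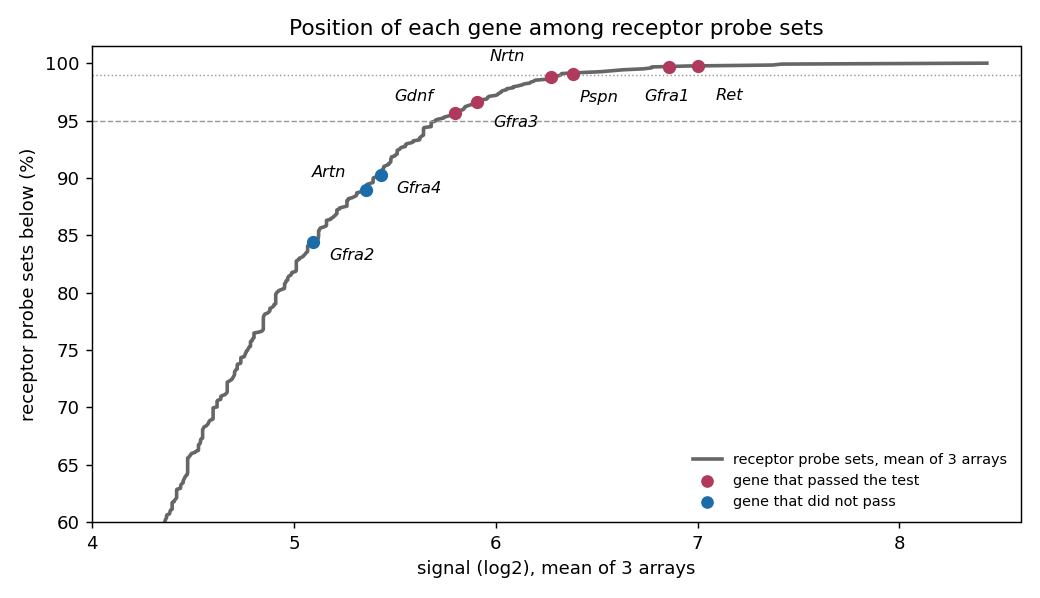
Share of the 1212 sensory receptor probe sets (%) below each gene against the mean signal (log2) of 3 arrays, with the cumulative curve of those probe sets in grey and lines at 95% (dashed) and 99% (dotted). Red points passed the test and blue points did not, and Ret and Gfra1 sit at the flat end of the curve above the dotted line.

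Among the ligands, Gdnf lay nearest the cutoff. It read 5.75 on array 1 and 5.83 on arrays 2 and 3, and array 1 was the lowest. The distance above the cutoff was 0.06, 0.10 and 0.12 on arrays 1, 2 and 3, with a mean of 0.09 ± 0.03 (SD, n = 3; limma, Benjamini-Hochberg adjusted p = 0.0161). On these arrays 56, 51 and 50 sensory receptor probe sets were brighter. The call ended on leaving out array 2 or array 3, on using only olfactory receptors (distance 0.01), and where identical readings were given the spread of the other probe sets, a setting in which 5 members and 54% of all genes passed. Gdnf thus lay at the edge of background, and the depth of signal does not settle whether its transcript was present.

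Gdnf in the kidney is known from mesenchyme, and the mesenchymal markers are therefore given beside it. Of 8 metanephric mesenchyme markers, 2 passed, or 25% beside 56.2% of all genes. These were Cited1 at 7.71 ± 0.17 and Crym at 6.48 ± 0.05 (SD, n = 3), and the lowest, Meox2, read 4.47. The mean of this list was 5.49, 5.42 and 5.46 on arrays 1, 2 and 3. Of 6 stromal markers, 2 passed, or 33.3% beside the same 56.2%, with Col1a1 at 6.75 and Lum lowest at 3.23. Pdgfra read 5.88 ± 0.18 (SD, n = 3) without passing. The part of such cells in the Gdnf signal was not tested, and in sorted bulk samples a few cells with much transcript cannot be told apart from many with little.

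Pspn, which encodes persephin, and Nrtn, which encodes neurturin, lay further above the cutoff than Gdnf did. Pspn read 6.45 on arrays 1 and 3 and 6.24 on array 2, the lowest. It lay 0.67 ± 0.14 above the cutoff (SD, n = 3; limma, Benjamini-Hochberg adjusted p = 0.0017) and was above the 99th percentile on 2 of 3 arrays. Its mean distance from that percentile was 0.0036, and it did not pass there. On arrays 1, 2 and 3, 11, 18 and 11 sensory receptor probe sets were brighter, and no other probe set held its values. Nrtn read 6.27 on every array, 0.56 above the mean cutoff (limma, Benjamini-Hochberg adjusted p = 5.59e-05) with a distance of -0.11 from the mean 99th percentile. Its value was shared by 15 to 22 other probe sets per array, 0 of them sensory receptors. Artn, which encodes artemin, read 5.36 on every array, a distance of -0.35 from the mean cutoff, and did not pass. Its value was also that of 2 or 3 sensory receptor probe sets on each array.

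Read as classical pairs, both genes passed for 1 of 4, Gdnf with Gfra1. The 56.2% of all genes that passed is a share of single genes and not of pairs, so it is no measure for this count. That pair rests on the Gdnf call, and in the settings named above that ended it, both genes passed for 0 of 4. Each of the other pairs had 1 gene that passed, which was the ligand for Nrtn with Gfra2 and Pspn with Gfra4, and the co-receptor for Artn with Gfra3. The Gfra3 value was one that 1 to 3 sensory receptor probe sets per array also held, as given above. At the 99th percentile 0 of 4 ligands passed in limma's test (0 also at an unadjusted p under 0.05). There 1 of 4 co-receptors, Gfra1, and Ret passed, beside 36.1% of all genes. Counts this small do not set ligands apart from co-receptors.

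**Figure D3:**
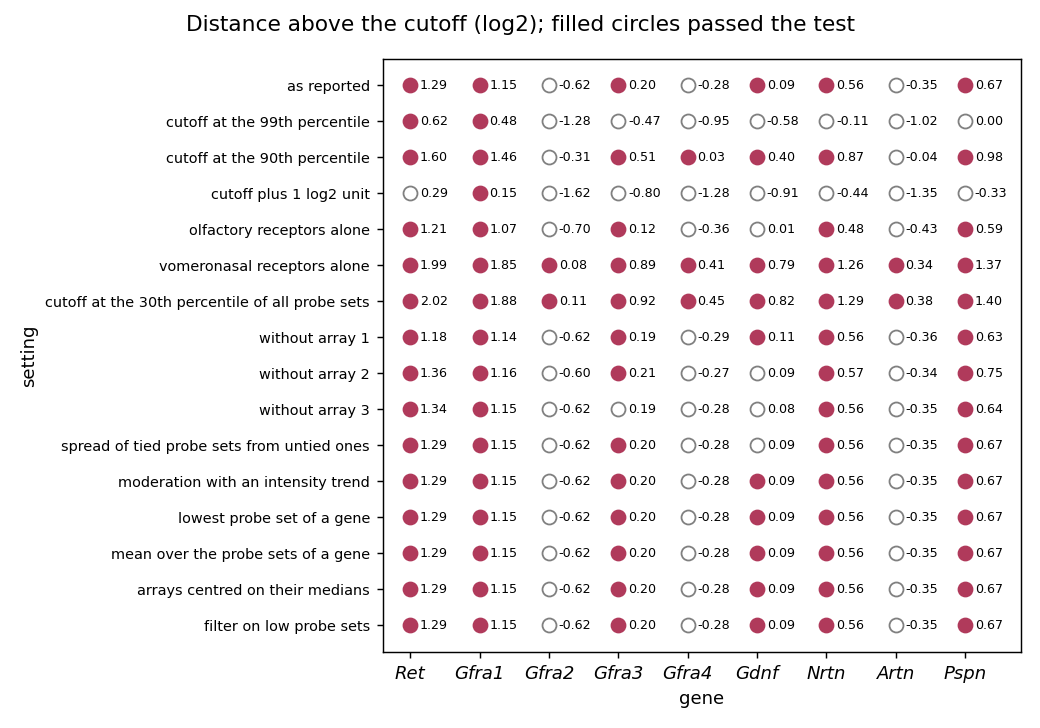
Distance (log2) of each gene above the cutoff under the reported setting and the 15 alternatives, 1 row per setting, where a filled circle passed limma's test at an adjusted p under 0.05. Gfra1 passes in every row, Ret in all but the cutoff raised by 1 log2 unit, and Gfra2 and Artn pass only where the cutoff is taken from vomeronasal receptors alone or from the 30th percentile of all probe sets.

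Of 5 measured genes for other receptors and partners of these ligands, 4 passed, beside 56.2% of all genes. Ncam1, the neural cell adhesion molecule that GDNF can use without Ret, read 7.36 on array 1 and 6.91 on arrays 2 and 3, a mean of 7.06 ± 0.26 (SD, n = 3; limma, Benjamini-Hochberg adjusted p = 0.00153 for 1.35 above the cutoff). Gas1, which encodes a surface protein related to the GFR-alpha family, read 6.84 on all arrays, and Sorl1, a sorting receptor that takes up GDNF, 6.76 on all arrays. The GDF15 co-receptor gene Gfral, a distant relative that also signals through Ret, read 3.81 on all arrays and did not pass. Ncam1 and Ret were both highest on array 1 and tied on arrays 2 and 3. Dusp6, Foxc2 and Kif26b of the lists below had this pattern too, so it is not particular to Ncam1 and Ret.

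Genes that carry the signal below Ret passed in 25 of 29 measured cases, and in 19 at the 99th percentile, beside 56.2% and 36.1% of all genes. The highest signals were those of Nras, a Ras GTPase, at 10.63 ± 0.06, the adaptor Grb10 at 9.35 ± 0.37, the ubiquitin ligase Cblb at 8.34 on all arrays and the adaptor Grb7 at 7.99 on all arrays. Grb7 and Grb10 bind phosphorylated Ret. The 4 that did not pass were Shc3, a neuronal adaptor, at 5.59, and the docking protein genes Dok1 at 5.48, Dok5 at 4.91 and Dok6 at 4.32, each with one value on all arrays. Of the Dok genes measured, Dok4 at 6.05 ± 0.09 and Dok2 at 5.92 on all arrays passed (SD, n = 3). Dok4, Dok5 and Dok6 form a subgroup that binds Ret, and of these 3 genes 1 was above background.

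Target genes of Ret signalling passed in 12 of 13 measured cases, and in 8 at the 99th percentile, beside 56.2% and 36.1% of all genes. Besides Cxcr4 and Dusp6, Mmp14, a membrane-bound metalloproteinase, was among the highest, at 7.94 ± 0.12 (SD, n = 3), with array 2 the lowest. Kif26b read 5.37, 5.30 and 5.30 on arrays 1, 2 and 3 and did not pass. Regulators known to act on Ret in the duct passed in 8 of 8 measured cases, beside the same 56.2%, with Ctnnb1, the gene of beta-catenin, at 9.60 ± 0.06, Gata3 at 9.43 ± 0.20 and Pax2 at 8.79 ± 0.03 (SD, n = 3). At the 99th percentile 7 of the 8 passed (36.1% of all genes), all but the retinoic acid receptor gene Rara, at 6.21. These target genes and regulators respond to or serve other signals too, and a signal above background does not show that Ret was active.

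Regulators known to act on Gdnf in the mesenchyme passed in 7 of 16 measured cases, 43.8% against 56.2% of all genes. Slit2, a secreted repellent that limits the Gdnf domain through Robo2, read 9.87, 10.12 and 9.94 on arrays 1, 2 and 3. Foxc2, a forkhead factor that limits the same domain, read 8.06 on array 1 and 7.73 on arrays 2 and 3, and Npnt, the matrix ligand that the duct presents to mesenchymal integrin, 7.82 ± 0.05 (SD, n = 3). The lowest of those that did not pass were Hoxc11 at 4.66, Osr1 at 4.78, Foxc1 at 5.01, Six2 at 5.07 and Hoxa11 at 5.14, which encode transcription factors of the mesenchyme. Slit2 and Npnt are also known from the duct itself.

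**Figure D4:**
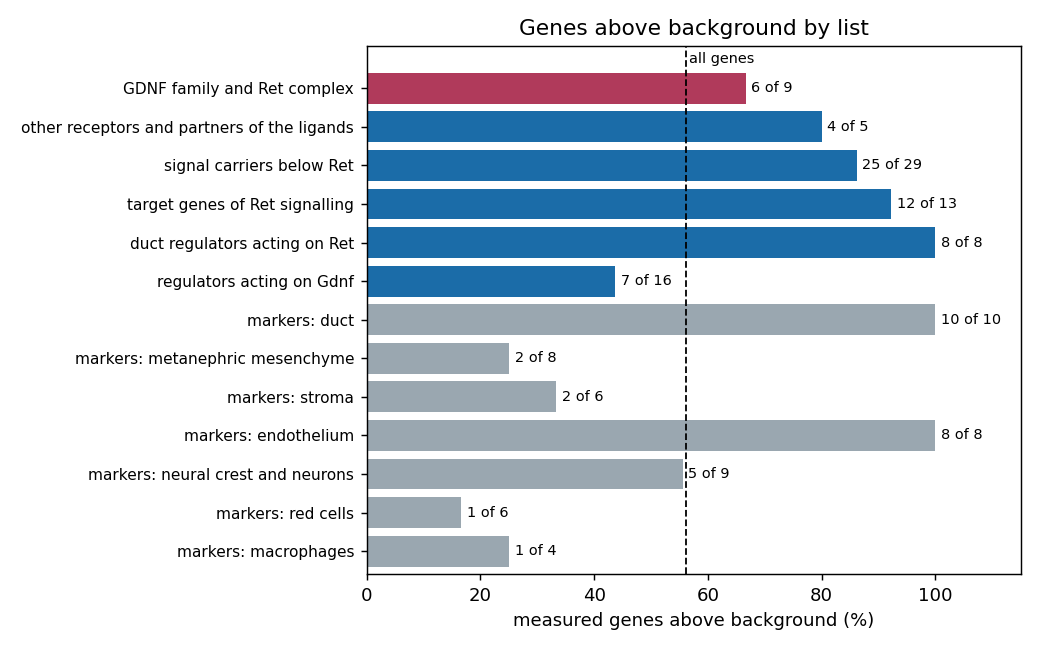
Share of measured genes above background (%) in the family (red), in the other lists of its pathway (blue) and in marker lists (grey), with the number of genes beside each bar and the share of all genes as a dashed line. The lists below Ret and acting on Ret lie to the right of the line, and the lists acting on Gdnf and marking mesenchyme lie to the left.

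Markers bear on which cells the arrays held. All 10 measured duct markers passed, beside 56.2% of all genes. Calb1 read 11.71 ± 0.03 (SD, n = 3), and Wnt9b was lowest at 6.96 on all arrays. Hoxb7, whose promoter drives the protein sorted on, is 1 of them, and the lists were chosen with earlier results known. Since the endothelial markers below passed in full too, a full pass does not by itself identify the cells. The mean of the duct markers was 8.18, 8.09 and 8.14 on arrays 1, 2 and 3. All 8 endothelial markers passed as well, with Emcn at 10.07 ± 0.69, Cdh5 at 9.10 ± 0.58 and Esam lowest at 6.05 ± 0.09 (SD, n = 3). Their mean was 8.22, 7.44 and 8.25 on arrays 1, 2 and 3, and all 8 were lowest on array 2, where Pspn was lowest too. The mean of the duct markers was also lowest on array 2. The median signal was 8.01 for the endothelial markers and 7.53 for the duct markers, so both sets were bright. Of 9 measured markers of neural crest and neurons, cells in which Ret and its co-receptors are known, 5 passed, or 55.6% against 56.2% of all genes, with Erbb3 at 6.96, Sox10 at 6.40 ± 0.03 and Elavl4 lowest at 4.13. The mean of that list was 5.67, 5.68 and 5.68 on arrays 1, 2 and 3. Red cell genes passed in 1 of 6 cases, but Hbb-y read 10.02 on array 1 against 5.31 and 5.45, and Hba-x 8.89 against 5.97 and 5.84, while Rhag read 3.97. Their mean was 6.84 on array 1 against 5.24 and 5.24, and Ret was highest on that array too. So was the mean of the duct markers, at 8.18 against 8.09 and 8.14. Macrophage markers passed in 1 of 4 cases, Cx3cr1 at 6.54, with Cd68 at 6.31 ± 0.51 and Adgre1 at 4.09. The part of these cells in the signals of the family was not tested. Ret, Gfra1, Nrtn and Pspn passed with any 1 array left out, Gfra3 did not without array 3, and Gdnf did not without array 2 or array 3.

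Genes with the most similar pattern over the arrays were sought for the 3 members that varied and passed, by the distance between values centred on each gene's mean. For Ret these were Gm9888, Slc16a12 and Ubl4b among 3380 genes with at least its range, and Ubl4b alone of them passed. For Gdnf they were Gsdmcl-ps, Mettl17 and Cxcl3 among 7342 genes, and Mettl17 read 6.81 on array 1 and exactly the Ret value, 6.89, on arrays 2 and 3. For Pspn they were Eif3h, Zc3hav1l and Ckm among 4787 genes. Each of these genes, like the member, held one value on 2 arrays and another on the third, and with 3 arrays such likeness is a description only.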

How the data were processed

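Signals of 3 arrays, 1 per preparation of sorted duct cells, were read from the deposited table. Per the submitters' processing notes the authors used Affymetrix Expression Console, and how it summarised, corrected and filtered the signals is not given in the sources used here. The deposited values (1.90 to 14.2, medians of 5.85 to 5.90 per array) were taken as log2 from their range. The table held 35557 probe sets. GEO's platform annotation gave 1 symbol to 21789 of them, several to 1621, which were left out, and none to 12147. By Entrez number 21698 matched RefSeq (GRCm38.p6), and 0 symbols changed. No build is named for the array, so genes are given without coordinates. Where a gene had several, the brightest on average stood for it.

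Each value minus its array's cutoff, the 95th percentile of 1212 olfactory and vomeronasal receptor probe sets, was fitted in limma 3.58.1 under R 4.3.3 (intercept only, moderated by empirical Bayes), and a one-sided p was adjusted by Benjamini-Hochberg. By construction about 5% of these probe sets exceed the cutoff, and 57 did on all 3 arrays; the false rate for other genes is unknown. On simulated data with 21789 probe sets and a spread of 0.116 log2 units, the test called 96% of probe sets set 0.25 above the cutoff, 100% of those set 0.5 or 1 above and 0% of those set 0.5 below; none was tied. Precision is limited by the number of arrays.

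The members and lists were chosen with earlier results of these data known. The rule for named genes took all 9 members, from each other list of the pathway the 3 highest means (4 of the longest list) and up to 5 genes that did not pass, from each marker list the 2 highest and the lowest, and for each member that varied and passed the 3 genes most like it; Robo2, Rara, Dok2 and Dok4 were named after their values were seen. Listed genes with no single-gene probe set were not analysed here. Alternatives varied the cutoff, the receptor set, the arrays, the moderation, the probe set of a gene, the scaling and a filter on low values. Promoter windows came from RefSeq.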

Additional observations from a re-analysis of the deposited data

How the results depend on the processing

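The cutoff moved the calls most. At the 99th percentile 2 members (Ret and Gfra1) and 7190 genes passed, against 6 and 11203. A cutoff higher by 1 log2 unit left 1 member (Gfra1) and 5653 genes. With that raised cutoff 34 of 71 pathway genes passed against 56, beside 28.4% of all genes. By list, 18 of 29 signal carriers below Ret and 1 of 5 other receptors and partners passed. So did 6 of 13 targets of Ret, 5 of 8 regulators of Ret and 4 of 16 regulators of Gdnf. Regulators of Gdnf passed in 12 cases both with vomeronasal receptors alone and at the 30th percentile of all probe sets. Leaving out 1 array gave 4 to 6 members, 52 to 56 pathway genes and 10363 to 11007 genes. Without array 3 limma gave all genes one spread, so that fit ignores each gene's own spread.

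For named genes whose call changed together with their side of the cutoff, the distances were these, in log2 units. At the 99th percentile they were -0.58 for Gdnf, -0.47 for Gfra3, -0.11 for Nrtn, -0.33 for Esam and -0.29 for Ubl4b. With the cutoff raised by 1 they were -0.91 for Gdnf, -0.80 for Gfra3, -0.44 for Nrtn, -0.33 for Pspn, -0.10 for Ckm, -0.23 for Crym, -0.17 for Cx3cr1, -0.66 for Esam, -0.31 for Sox10 and -0.62 for Ubl4b. At the 90th percentile they were 0.031 for Gfra4, 0.17 for Cxcl3, 0.078 for Dok1 and 0.20 for Shc3. With vomeronasal receptors alone they were 0.34 for Artn, 0.079 for Gfra2, 0.41 for Gfra4, 0.55 for Cxcl3, 0.46 for Dok1, 0.13 for Hoxa11, 0.31 for Kif26b, 0.58 for Shc3 and 0.053 for Six2. At the 30th percentile of all probe sets they were 0.38 for Artn, 0.11 for Gfra2, 0.45 for Gfra4, 0.59 for Cxcl3, 0.50 for Dok1, 0.31 for Gm9888, 0.16 for Hoxa11, 0.34 for Kif26b, 0.61 for Shc3 and 0.087 for Six2. These shifts follow from the cutoff itself, since the signals were the same. Signal over background is the limit for Gdnf, Gfra3, Nrtn and Pspn. No paired analysis was possible because there is a single group.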
